A study of Homo sapiens with 4 samples.

Results

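The enzymes described here make the deoxynucleotides of DNA and the pyrimidines that feed them. They are encoded by 9 genes, TYMS, RRM1, RRM2, DUT, TK1, DCK, DTYMK, CTPS1 (named CTPS in the array's annotation) and CAD, which were taken by symbol and are read by 11 of the 24460 probes on each array (9 of 17605 named genes). The RNA was from DLD1 and HT29 cells, 2 established lines of human colorectal cancer. Each line spent 24 h either with glucose at 10 mM beside 2 mM glutamine, or with the same glutamine and no glucose. All cultures had 10% dialysed serum, which is depleted of small molecules. Each line and medium had 1 single-colour array, 4 in all, so a change within a line carries no replicate check and no p-value, and only the pair of lines repeats it. No label says whether any sample pooled several cultures.

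Deoxynucleotides are made by ribonucleotide reductase, which removes an oxygen from the sugar of ribonucleotides. Thymidylate has a further route of its own, in which dUMP is methylated by thymidylate synthase, and salvage kinases recover nucleosides from outside the cell. In most cell types several of these genes are transcribed mainly around the entry into S phase under E2F factors, and the enzymes are targets of drugs used against colorectal cancer, with thymidylate synthase blocked by fluoropyrimidines. Pyrimidine rings are built from glutamine and aspartate by CAD, and the synthesis of UTP and CTP serves RNA as well as DNA.

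All 9 genes read lower without glucose in both lines, against 32.7% of the 15616 genes tested. Changes are given on a log2 scale, without minus with glucose, and were computed after quantile normalization, with an offset of 50 added to the intensities, which shrinks the changes of dim genes. The median of the 9 changes was -0.48 in DLD1 and -1.65 in HT29, where the median over all genes was 0.00 in each line. In HT29, 6 of the 9 were lower by at least 2-fold (TYMS, RRM1, RRM2, DUT, TK1 and DTYMK), against 3.29% of all genes. In DLD1 none of the 9 reached 2-fold, against 0.807% of all genes, and so none did in both lines (0.442% of all genes). The pattern of a smaller decrease in DLD1 and at least a 2-fold one in HT29 was thus shown by 6 of 9, against 2.19% of all genes. Increases of at least 2-fold, seen for none of the 9, made up 1.2% of all genes in DLD1 and 3.81% in HT29. RNA of a whole culture was measured, so fewer cells in S phase and less of these mRNAs per cell cannot be told apart.

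The promoters of the 4 genes with the largest decreases in HT29 are shown, beside that of CTPS1, whose change in HT29 was the smallest of the 9. In DLD1 CTPS1 did not stand apart, at -0.51 against -0.48 for DUT. CAD, which also changed little in HT29 (-0.54) and has a CCAAT box, is not printed. Each line holds the 250 bases before a transcription start, 5′ to 3′ on the gene's strand, from RefSeq on GRCh38.p14, and capitals mark E2F-type motifs and CCAAT boxes. Of several annotated starts, the most downstream one was taken for RRM2, TK1 and DUT and the most upstream one for CTPS1. The windows of the other annotated starts of DUT and TK1 held no E2F-type motif and no CCAAT box, so the printed starts are those with matches.
TYMS, chr18:657403-657652, plus strand: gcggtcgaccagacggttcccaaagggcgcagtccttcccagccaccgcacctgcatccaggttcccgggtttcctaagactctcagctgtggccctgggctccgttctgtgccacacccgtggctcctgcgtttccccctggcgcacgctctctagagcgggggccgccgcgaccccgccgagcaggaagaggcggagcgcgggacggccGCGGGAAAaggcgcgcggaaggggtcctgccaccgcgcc
RRM2, chr2:10122489-10122738, plus strand: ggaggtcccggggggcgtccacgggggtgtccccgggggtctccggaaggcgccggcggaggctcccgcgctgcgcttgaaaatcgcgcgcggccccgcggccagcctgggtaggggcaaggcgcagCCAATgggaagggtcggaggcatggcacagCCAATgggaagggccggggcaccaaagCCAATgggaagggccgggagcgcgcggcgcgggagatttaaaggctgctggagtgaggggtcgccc
TK1, chr17:78187053-78187302, minus strand: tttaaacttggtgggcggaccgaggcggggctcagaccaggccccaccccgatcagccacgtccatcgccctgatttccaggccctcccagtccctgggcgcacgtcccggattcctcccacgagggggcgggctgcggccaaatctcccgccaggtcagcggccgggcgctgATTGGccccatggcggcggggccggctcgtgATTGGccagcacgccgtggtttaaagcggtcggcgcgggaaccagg
DUT, chr15:48331947-48332196, plus strand: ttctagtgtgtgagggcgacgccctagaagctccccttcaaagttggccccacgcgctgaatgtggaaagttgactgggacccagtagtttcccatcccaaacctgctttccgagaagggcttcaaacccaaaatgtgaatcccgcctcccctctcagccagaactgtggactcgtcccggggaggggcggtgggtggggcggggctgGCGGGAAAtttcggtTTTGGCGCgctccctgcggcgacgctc
CTPS1, chr1:40979446-40979695, plus strand: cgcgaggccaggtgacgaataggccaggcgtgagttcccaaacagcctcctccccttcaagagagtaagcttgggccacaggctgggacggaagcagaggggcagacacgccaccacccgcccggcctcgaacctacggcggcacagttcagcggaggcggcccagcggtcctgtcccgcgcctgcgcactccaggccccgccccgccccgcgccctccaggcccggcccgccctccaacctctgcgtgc

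Windows of 300 bases, from 250 before to 50 after a start, were searched on both strands for the E2F-type motifs TTTCGCGC, TTTGGCGC, TTTCCCGC and TTTGCCGC. The other motifs were the CCAAT box, the cell cycle homology core spelled TTTGAA, and the E-box spelled CACGTG. The search was chosen after the values were seen. An E2F-type motif was found for TYMS (at -39 from the start), DUT (at -42 and -27) and DCK (at 22), in 3 of the 15 member windows, against 3.31% of all 35116 windows. The TTTGGCGC of DUT lies downstream of a GCGGGAAA, the reverse complement of TTTCCCGC, with no shared base. CCAAT was found for 5 genes, RRM1, RRM2, TK1, DTYMK and CAD, in 6 windows, and in 34.6% of all windows. RRM2 held 3 copies, at -123, -93 and -66 from the start printed above, and TK1 had 2 in reverse, at -77 and -46. TTTGAA was in windows of RRM1 and DUT (15.2% of all windows) and CACGTG in that of DCK (7.26%). Neither CTPS1 window held any of the 4 motifs. A match is a description of the letters only, since no binding was measured.

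Both subunits of ribonucleotide reductase were lower. RRM2 encodes the small subunit that carries the catalytic radical and is made around S phase. Its normalized log2 level was 12.55 in DLD1 with glucose and 11.94 without, and 11.50 and 9.07 in HT29, where it was 5.38-fold lower without glucose. RRM1, the large subunit with the substrate and regulatory sites, stood at 11.96 and 11.55 in DLD1 and at 11.43 and 9.78 in HT29. HT29 without glucose was the lowest array for both, and 31.8% of the RRM1 level with glucose was left there, against 18.6% for RRM2. The changes of RRM2 were -0.61 and -2.43 (mean -1.52 ± 1.28, SD, n = 2 lines) and those of RRM1 -0.42 and -1.65 (mean -1.03 ± 0.87, SD, n = 2 lines). The spread between the lines was close in size to each mean. For the effect of the medium over both lines, limma with the line as a block gave adjusted p = 0.485 for RRM1 and 0.484 for RRM2, adjusted over all 15616 genes. Across the 9 genes these p-values ran from 0.303 to 0.585, while limma called 0% of all genes, with 13.8% at an unadjusted p below 0.05. The fit has 1 residual degree of freedom, and of the 9 genes CTPS1 alone had an unadjusted p below 0.05.

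The 2 genes of the thymidylate route had changes close to those of RRM2. TYMS, which methylates dUMP to dTMP with a folate cofactor, was at 11.45 with glucose and 10.88 without in DLD1, and at 10.51 and 8.11 in HT29. Its 2 probes gave changes of -0.49 and -0.64 for DLD1, and for HT29 -2.67 and -2.13, so both were far lower there. DUT encodes dUTPase, which makes dUMP for thymidylate synthase and keeps uracil out of DNA. It read 11.27 and 10.79 in DLD1, and in HT29 10.78 and 8.27, so that 17.6% of its level was left there without glucose and 71.5% in DLD1. The mean change over the lines was -1.49 ± 0.70 for DUT and -1.49 ± 0.64 for TYMS (limma SE, n = 2 lines), and limma gave adjusted p = 0.524 for DUT and 0.494 for TYMS. Just 2 of the 15616 genes had a lower change in HT29 than DUT, 4 had a lower one than RRM2 and 6 than TYMS, whereas in DLD1 between 643 and 1013 genes lay below these 3. These ranks hold for the reported values, whose offset shrinks dim genes, and were not counted under the other processings. By the deposited values GDA, from the purine salvage list, was at -3.57 in HT29, below DUT at -2.89. In the reported values GDA was at -1.74. The deposited intensity of DUT, on a linear scale with a common median on all arrays, was 1871 and 1098 in DLD1, and 1654 and 223.7 in HT29, where the array without glucose stood far below the other 3. RefSeq names 8 pseudogenes after DUT, 3 after RRM2 and 2 after TYMS, and whether these probes also read such copies was not tested.

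**Figure D1:**
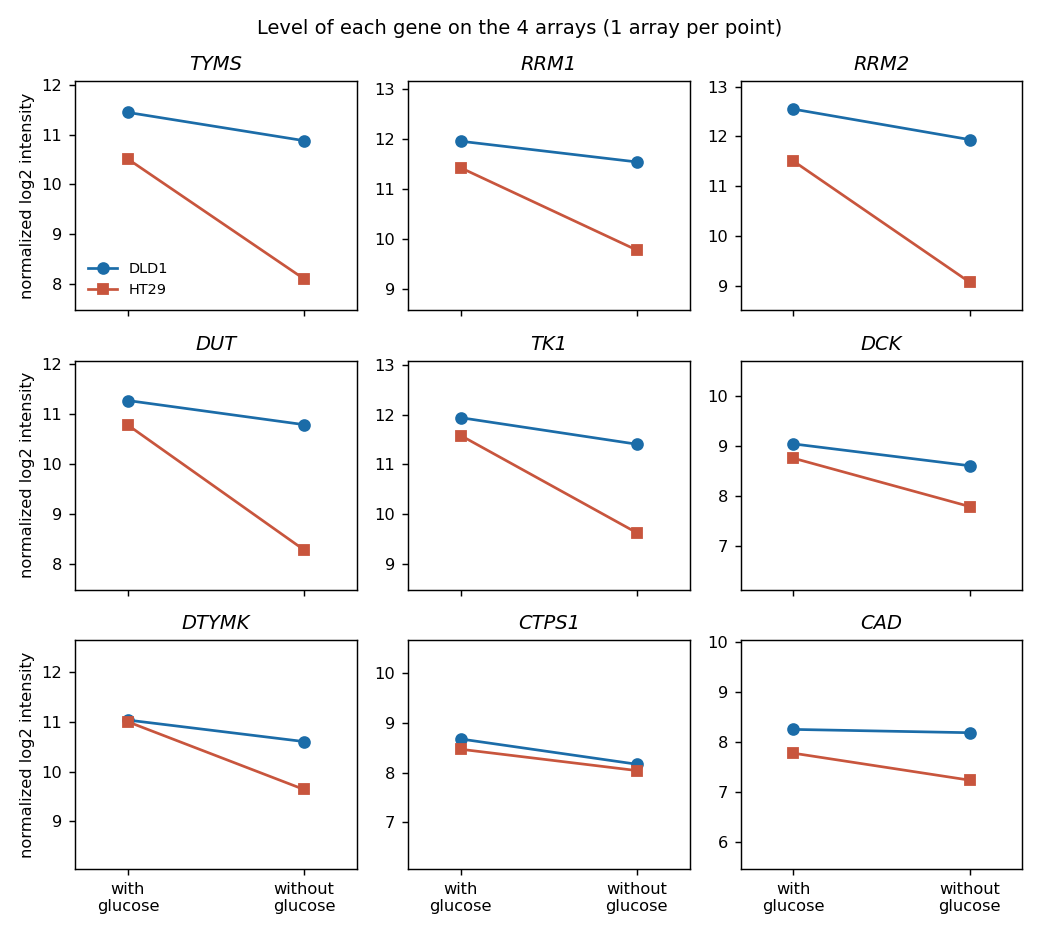
Normalized log2 intensity (vertical axis, of the same span in each panel) of the 9 genes on the 4 arrays, with and without glucose (horizontal axis), where each point is 1 array, circles are DLD1 and squares HT29, and lines join the arrays of a line. The HT29 line drops steeply for TYMS, RRM2, DUT, TK1 and RRM1, and runs nearly parallel to the DLD1 line for CTPS1.

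Kinases that charge nucleosides and thymidylate were also lower, TK1 by more than RRM1 in both lines and DCK and DTYMK by less in HT29. TK1, the cytosolic thymidine kinase of dividing cells, was at 11.94 and 11.40 in DLD1, and in HT29 at 11.58 and 9.63, a change of -0.53 and -1.95 (mean -1.24 ± 0.49, limma SE, n = 2 lines). DTYMK, which phosphorylates dTMP from both the synthase and TK1, stood at 11.03 and 10.60 in DLD1. In HT29 with glucose it differed from DLD1 by -0.03, and without glucose it was at 9.64. Its 2 probes gave -0.49 and -0.37 in DLD1 and -1.34 and -1.38 in HT29, so they differed little. DCK, the deoxycytidine kinase that also activates nucleoside drugs, read 9.04 and 8.60 in DLD1 and 8.76 and 7.79 in HT29. At -0.97 it missed the 2-fold minimum in HT29 by a narrow margin, and it passed with the offset of 16 (-1.09), local background subtraction (-1.11), median scaling (-1.25) and the deposited values (-1.26).

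The 2 genes that act before the deoxynucleotide branch had the smallest changes in HT29. CTPS1, which aminates UTP to CTP with glutamine, was at 8.67 and 8.17 in DLD1 and at 8.47 and 8.04 in HT29. Its changes of -0.51 and -0.43 (mean -0.47 ± 0.06, SD, n = 2 lines) were the only ones of the 9 not lower in HT29 than in DLD1, and its limma adjusted p of 0.303, equal to the smallest of all genes, ran from 0.202 to 0.549 over the alternatives, the highest being that without the line as a block. CAD, whose protein catalyses the opening steps of pyrimidine synthesis, read 8.26 and 8.19 in DLD1 and 7.78 and 7.24 in HT29. It kept 95.5% of its level in DLD1 without glucose and 68.7% in HT29, and 4622 genes had a lower change than CAD in DLD1.

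No test of the difference between the lines is possible with 4 arrays. As a description, the change in HT29 was lower than that in DLD1 for 8 of the 9 genes, with differences of -2.02 for DUT, -1.84 for TYMS, -1.82 for RRM2, -1.42 for TK1 and -1.24 for RRM1. These 5 exceeded a 2-fold difference between the lines, against 2.13% of all genes. DTYMK (-0.93), DCK (-0.53) and CAD (-0.47) differed by less. After local background subtraction 6 of the 9 had the lower change in HT29, with the direction turned for DTYMK and CAD, and after median scaling all 9 did. The scatter between probes was taken from 1681 genes read by a pair of probes that cleared background everywhere. Its standard deviation for a single probe was 0.20 for a change in DLD1, 0.30 in HT29 and 0.28 for the difference between the lines. Both probes of a gene share the same arrays, so this scatter leaves out differences between cultures, labellings, hybridizations and scalings. CAD in DLD1 lay within it, and so did the difference of 0.08 between the lines for CTPS1.

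**Figure D2:**
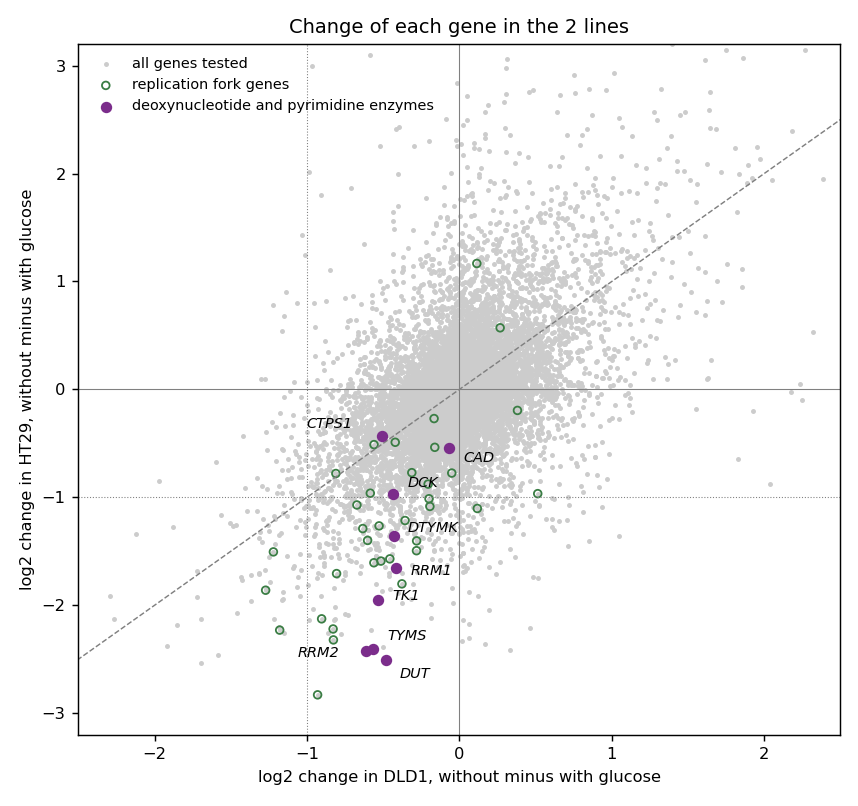
Log2 change without minus with glucose in DLD1 (horizontal) and HT29 (vertical) for all 15616 genes (grey, some beyond the axes), 35 replication fork genes (open circles) and the 9 enzymes (filled, named), with the dashed line marking equal change and dotted lines a 2-fold decrease. DUT, RRM2 and TYMS lie at the lower edge of the cloud in HT29 while their DLD1 values are between -0.48 and -0.61.

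How far the changes go depended on the scaling. With median scaling in place of quantile normalization, the median of the 9 was -0.81 in DLD1 and -2.00 in HT29. The 948 genes with a mean level of at least 10 then also shifted, from a median of -0.06 to -0.37 in DLD1 and from -0.13 to -0.33 in HT29, while the median of all genes stayed at -0.02 and 0.02. With the deposited values the members' medians were -0.73 and -1.81. All 9 were lower in both lines under each of the 8 other processings. Subtracting the local background gave -2.43 for CAD and -2.06 for DTYMK in DLD1 and brought RRM1 there to -0.04. On the array of DLD1 without glucose the local background was 89.6% of the spot for CAD and 99.0% for 1 DTYMK probe, and over all arrays it was correlated with the spot (r of the logs 0.904 to 0.966). For CAD and that DTYMK probe little of the spot is left after subtraction, whereas for RRM1 the local background was 38.2% and 36.9% of the spot in DLD1 with and without glucose. All 11 probes lay above background on all 4 arrays, at 3.50 to 155 times the blank spots.

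**Figure D3:**
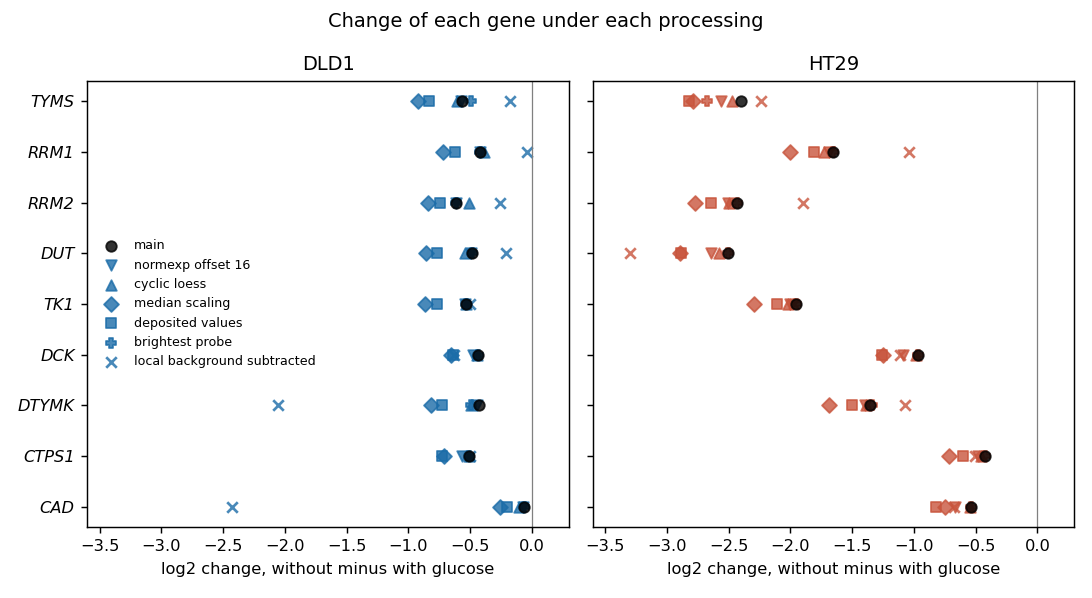
Log2 change without minus with glucose (horizontal axis) of each gene (vertical axis) in DLD1 (left) and HT29 (right), where the black circle is the reported value and other markers are alternative processings, without the 2 filters on dim probes, under which no value moved. Every marker lies below 0, and the crosses of CAD and DTYMK in DLD1 stand far from the rest.

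A second comparison sets the lines against each other, and it shares its arrays with the first. HT29 read lower than DLD1 for all 9 genes in both media, against 34.6% of all genes. With glucose the differences ran from -0.03 for DTYMK to -0.94 for TYMS and -1.04 for RRM2. There RRM2 alone was at least 2-fold lower (2.72% of all genes). Without glucose they ran from -0.13 for CTPS1 to -2.86 for RRM2, and TYMS (-2.77), DUT (-2.51), TK1 (-1.78) and RRM1 (-1.77) were also at least 2-fold lower, 5 of 9 against 4.8% of all genes. For the line effect over both media, limma with the medium as a block gave adjusted p from 0.230 for CAD to 0.511 for DTYMK, and called 0% of all genes, with 21.3% at an unadjusted p below 0.05. The differences with glucose depended in part on the scaling, with 7 of the 9 still lower in HT29 under median scaling or by the deposited values, and 8 of 9 under cyclic loess. With median scaling TK1 was 0.07 and DTYMK 0.28 higher in HT29, and the 948 bright genes had a median of 0.30 on that contrast. With glucose, RRM2 was at -0.56 with median scaling and -0.85 with cyclic loess, below 2-fold in both.

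DLD1 with glucose was the highest array for all 9 genes and HT29 without glucose the lowest. The middle places were held by DLD1 without glucose and then HT29 with glucose for 5 genes (TYMS, RRM1, RRM2, DUT and CAD), and in the reverse order for TK1, DCK, DTYMK and CTPS1. This order depended on the scaling: with median scaling or the deposited values, HT29 with glucose lay above DLD1 without glucose for TYMS, RRM1, RRM2 and DUT too, which left CAD alone in the first order. In the reported values these arrays were nearly level for DUT, at 10.78 in HT29 and 10.79 in DLD1. The highest and lowest places moved too. In the same 2 settings HT29 with glucose lay above DLD1 with glucose for TK1 (0.068 and 0.053) and DTYMK (0.28 and 0.27). By the deposited values HT29 without glucose lay 0.077 above DLD1 without glucose for CTPS1. Local background subtraction put HT29 above DLD1 with glucose for DUT (0.19) and DTYMK (0.61), and without glucose for DTYMK (1.59) and CAD (1.29). For CTPS1, DLD1 and HT29 without glucose differed by 0.13, less than the standard deviation between probes of 0.33 for that contrast. The genes outside the set whose centred levels over the 4 arrays lay nearest to the members' median profile were CENPM (root mean square difference 0.11), MCM2 (0.11), GCHFR (0.12), HELLS (0.12) and MVK (0.13). Nearest to DUT were PCNA (0.15), GINS2 (0.17) and HOXB7 (0.22), and to TYMS SLC12A2 (0.17), PCNA (0.25) and MCM6 (0.26). RRM1 lay nearest of the members to their own median, at 0.02.

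The rest of the pathway was read from lists of related genes, each taken without the 9 members. Of 141 such genes tested, none had a limma adjusted p below 0.05 for the medium, the smallest being 0.303, and 37 (26.2%) had an unadjusted p below 0.05. In the route to UMP and CTP all 3 other genes read lower in each line, with medians of -0.34 and -0.73. UMPS, which makes UMP, was at -0.86 in DLD1 and -0.92 in HT29, DHODH, the mitochondrial dehydrogenase of the pathway, at -0.34 and -0.54, and CTPS2, a second CTP synthase, at -0.10 and -0.73, with 0.69 in DLD1 after local background subtraction. None reached 2-fold here, but UMPS did in both lines with median scaling (-1.14 and -1.23), the deposited values (-1.11 and -1.03) and the local background subtracted (-1.25 and -1.02). CTPS2 in HT29 was at -2.37 by the deposited values and -1.70 after local background subtraction. Of 18 measured genes of pyrimidine salvage and nucleotide kinases, 5 were lower and 4 higher in both lines. Over all 15616 genes, 32.7% were lower and 4826 were higher in both. The medians of the 18 genes were -0.03 and 0.02, or -0.18 and -0.16 with median scaling. DCTPP1, which hydrolyses dCTP and related triphosphates, was at -0.60 and -1.49, and the mitochondrial kinase gene NME4 at -0.72 and -1.08. Both read 0.09 in DLD1 with the local background subtracted. UPP1, uridine phosphorylase, was instead 0.76 and 2.75 higher, and the cytidine deaminase gene CDA 0.66 and 0.33 higher, with -0.13 in DLD1 after local background subtraction. TYMP, thymidine phosphorylase, was at -0.03 in DLD1 and 1.02 in HT29. The mitochondrial salvage kinases TK2 (0.03 and -0.20) and DGUOK (-0.06 and -0.10) were near 0 here. TK2 read -1.01 in HT29 by the deposited values and 0.95 in DLD1 after local background subtraction, and DGUOK -0.41 and -0.40 with median scaling. The uridine kinase gene UCK2 was at -0.70 and 0.02 (-0.25 in HT29 after median scaling).

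Among 6 measured partners of ribonucleotide reductase, 1 was lower and 2 were higher in both lines. Over all 15616 genes, 32.7% were lower and 4826 were higher in both. RRM2B, the p53-inducible small subunit, was at 0.27 in DLD1 and -0.14 in HT29. Of the proteins that return electrons to the enzyme, the glutaredoxin gene GLRX was 0.96 and 2.77 higher and the thioredoxin reductase gene TXNRD1 1.51 and 1.94 higher, while thioredoxin itself (TXN) was at -0.16 and 0.53. GLRX in DLD1 was -1.32 with the local background subtracted. CCNF, a ubiquitin ligase subunit that marks RRM2 for degradation, was at -0.74 and -0.86. The decrease of CCNF was larger by the deposited values, at -2.00 in DLD1 and lower still in HT29. With the local background subtracted CCNF read -1.74 in DLD1 and -0.91 in HT29. The 6 genes had medians of 0.05 and 0.52, that of DLD1 being -0.95 after local background subtraction and -0.09 after median scaling. Of 11 measured genes of deoxynucleotide hydrolysis and pool cleaning, both lines shared 4 lower and 4 higher ones. The medians were 0.01 and -0.02, or -0.24 and -0.15 with median scaling. These 0.01 and -0.02 are the values of DPYS and UPB1, dim genes above background on only 2 arrays. The 9 genes above background on all 4 arrays had medians of -0.02 and 0.09. SAMHD1, a dNTP hydrolase, was at -0.36 and -0.78, but at -0.87 and -2.01 by the deposited values and -1.48 and -1.77 with the local background subtracted. NUDT1, which removes oxidized purine nucleotides, was at -0.38 and -1.16 (2.84 in HT29 with the local background subtracted). The nucleotidase gene NT5E was at 0.99 and 0.21 (-0.08 in HT29 after median scaling).

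In the folate cycle that serves TYMS, cytosolic SHMT1 (-0.38 and -1.70) and MTHFD1 (-0.22 and -1.16) were at least 2-fold lower in HT29, and MTHFD1 in DLD1 was at 0.002 after local background subtraction. The mitochondrial enzymes MTHFD2 (1.92 and 1.96) and SHMT2 (0.90 and 1.25) were higher. Of the 7 measured genes, 4 were lower and 2 higher in both lines, against 32.7% lower and 4826 higher of all 15616 genes. The medians were -0.08 and -0.15, with 0.26 in DLD1 after local background subtraction. Purine synthesis had no gene at least 2-fold lower in either line, but 2 in DLD1 and 1 in HT29 by the deposited values, 3 in DLD1 after local background subtraction and 1 in HT29 with median scaling or an offset of 16. Of its 15 genes 8 were lower in DLD1 and HT29 alike, against 32.7% of all genes. Medians were -0.21 and -0.25, or -0.42 and -0.54 with median scaling. PRPS2, a source of phosphoribosyl pyrophosphate, was at -0.30 and -0.93 and GMPS, which makes GMP, at -0.59 and -0.43, while IMPDH2, which leads to guanine nucleotides, was at 1.37 and 0.23 (-0.09 in HT29 after local background subtraction). Among 11 purine salvage genes 4 were lower in both lines, again against 32.7% of all genes. The medians of the 11 were -0.08 and -0.33, with 0.11 in DLD1 after local background subtraction. HPRT1 was at -0.51 and -0.94.

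**Figure D4:**
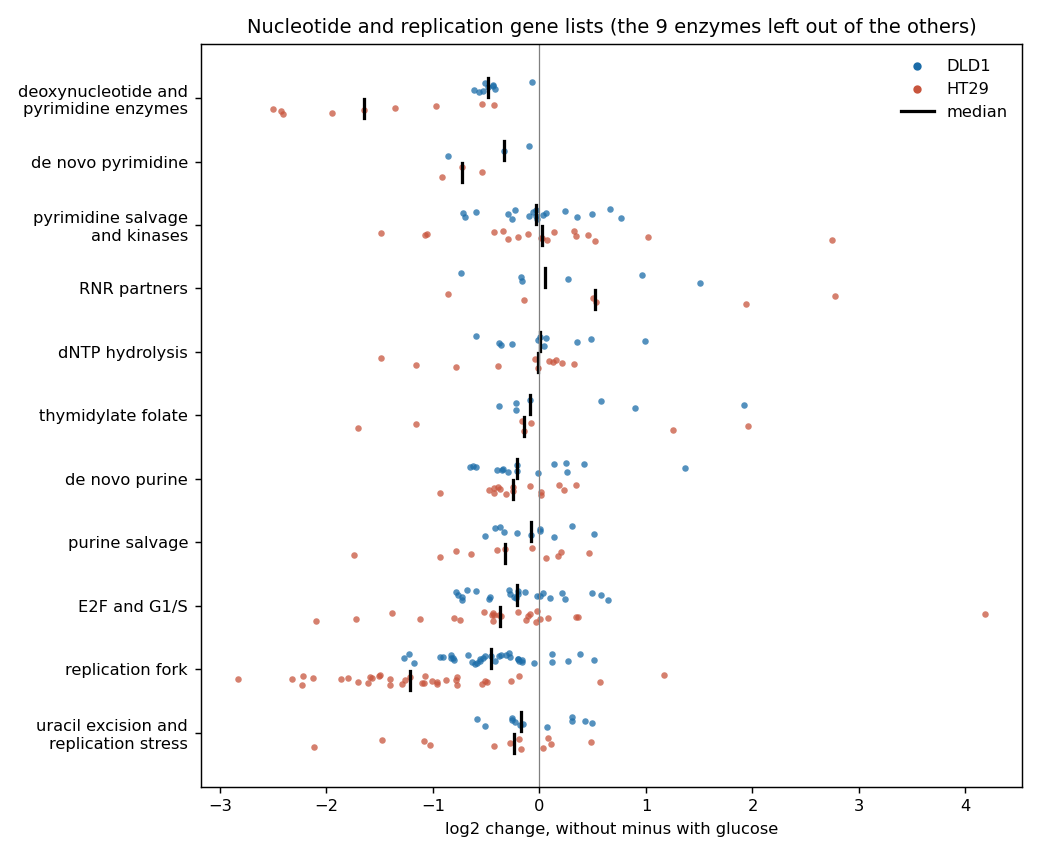
Log2 change without minus with glucose (horizontal axis) of single genes (points) and list medians (black bars) in DLD1 (blue, upper) and HT29 (red, lower), where RNR is ribonucleotide reductase. In these reported values only the 9 enzymes and the replication fork genes have an HT29 median below -1, at -1.65 and -1.21. The de novo pyrimidine list also passed -1 in HT29 by the deposited values (-1.03) and after local background subtraction (-1.02).

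Most genes of S phase in the list also read lower. Of 35 replication fork genes 30 did so in both lines, against 32.7% of all genes. Their medians were -0.46 and -1.21. At least 2-fold lower were 22 in HT29 (3.29% of all genes) and 3 in DLD1 (0.807%). In DLD1 that count was 6 after median scaling, 9 by the deposited values and 17 after local background subtraction, where the median was -0.99 and 23 genes were lower in both lines. The helicase subunit gene MCM6 was at -0.93 and -2.83, the sliding clamp gene PCNA at -0.83 and -2.32 (0.56 in DLD1 with the local background subtracted) and TOP2A, a topoisomerase of chromosome untangling, at -1.18 and -2.23. Higher in both lines were 2 of the 35, against 4826 of all 15616 genes. CDC6 was at 0.11 and 1.17, at least 2-fold higher in HT29 (3.81% of all genes). RFC1 was at 0.27 and 0.57, and CDT1 at 0.38 and -0.19. In DLD1, CDC6 was at -0.24 after median scaling and -0.14 by the deposited values. Local background subtraction gave -0.99 for CDC6 and -0.19 for RFC1 there. What part the replication fork genes had in the values of the 9 genes was not tested. Of 24 E2F and G1/S regulators 15 were lower in DLD1 and HT29 alike, against the same 32.7% (medians -0.21 and -0.37), with 4 at least 2-fold lower in HT29 and none in DLD1. By the deposited values 7 were at least 2-fold lower in each line. TFDP1, the E2F partner DP1, was at -0.73 and -2.09, MYBL2, a cell cycle transcription factor, at -0.46 and -1.73, and CDK2 at -0.79 and -1.38. E2F1 itself was at 0.04 and -0.38 and MYC at 0.10 and 0.01. E2F1 in HT29 was at -0.98 by the deposited values and -1.20 after local background subtraction, which gave 1.43 for MYC in DLD1. CDKN1A, the p21 inhibitor of cyclin-dependent kinases, stood 0.49 higher in DLD1 and 4.18 in HT29. In the list of uracil excision and replication stress (12 genes, medians -0.17 and -0.24), UNG, which cuts uracil out of DNA, was at -0.19 and -2.12, and CHEK1, a checkpoint kinase, at -0.59 and -1.47.

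The arrays differed little in the share of probes above the blank spots, which was between 85.5% and 87.0%. Their scale differed more. The slope of the deposited intensity on the spot median ran from 0.749 in HT29 with glucose to 0.961 in HT29 without. Precision is limited by having 4 arrays. All 9 of the colorectal epithelial markers on the array were above background on each array, with summed deposited intensities from 25786 to 38631. Of 8 markers of fibroblasts, leukocytes and endothelium, 5 exceeded background on each array, with sums from 54.8 to 67.6. Being above background is a low bar that does not show expression. The epithelial CDX2 in HT29 (5.83 with and 5.88 without glucose) and LGALS4 in DLD1 with glucose (5.95) read close to the endothelial VWF (5.84 to 5.87). The brightest epithelial markers were KRT18 and EPCAM.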

How the data were processed

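Spots were read on 4 arrays, 1 for each line and medium, grouped by sample title. Per the file headers, the scanner files hold median intensity, joined from 3 gains, with no background subtracted. The deposited value table holds intensity that was a straight line of the spot median with about the blank level subtracted (34.4 to 35.7) and a common median on all arrays. How the authors made it, and the image software, are not given in the sources used here.

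Spot medians were corrected by normexp (offset 50) over all spots and quantile normalized in limma 3.58.1 (R 4.3.3). Control spots and 1 flagged probe were dropped. A probe counted where it exceeded the 95th percentile of blank spots on at least 1 array, a gene where this held in each line, and probes of a gene were averaged. Symbols came from the platform annotation, with older ones (2491) updated through RefSeq synonyms. Counts use a 2-fold minimum. Mean effects were tested in limma with the line, or the medium, as a block and Benjamini-Hochberg adjustment over 15616 genes at 0.05. Same-line arrays pair by design. The fit was tested on simulated data.

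The members and lists were chosen with earlier results of these data known. Named were the members, the 3 lowest and 3 highest of each list by mean change, a fixed set of pathway genes and the nearest profiles, from which examples are given. Alternatives varied the offset, background, scaling, source, dim filter and probe rule. Figures used matplotlib 3.10.9.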

Additional observations from a re-analysis of the deposited data

Results flagged for a closer look

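GDA, guanine deaminase, placed here in the purine salvage list, moved in opposite directions in the lines. It was at 0.52 in DLD1 and -1.74 in HT29, a difference of -2.26 that was not tested.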

How the results depend on the processing

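All 9 genes were lower without glucose in both lines under every one of the 8 alternatives, and limma called none of the 9 for the medium under any of these or without the line as a block. With the local background subtracted the median of the 9 in HT29 was -1.11, 2 genes were at least 2-fold lower in DLD1 and 3 lower in HT29 than DLD1 with glucose. With median scaling the medians were -0.81 in DLD1, -2.00 in HT29 and -1.36 over both lines, and for HT29 minus DLD1 -0.10 with glucose, -1.35 without and -0.64 over both media. With the deposited values they were -0.73 in DLD1, and -0.13, -1.29 and -0.70 between the lines. The count at least 2-fold lower in HT29 with glucose was 1, but 0 after cyclic loess, median scaling or use of the deposited values, and 2 with the brightest probe. Between the lines the sign turned for DTYMK with glucose (0.28 after median scaling, 0.0038 after cyclic loess, 0.27 by the deposited values), for TK1 with glucose (0.068 after median scaling, 0.053 by the deposited values) and for CTPS1 with the deposited values (0.077 without glucose, 0.015 over both media). With the local background subtracted it turned for DUT (0.19 with glucose), DTYMK (0.61 and 1.59 with and without glucose, 1.10 over both) and CAD (1.29 without glucose, 0.42 over both). The causes were not tested.

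Over all genes, those at least 2-fold lower numbered 126 in DLD1 and 514 in HT29, against 321 and 895 after median scaling, 654 and 1656 by the deposited values, 225 and 826 with an offset of 16, and 1523 and 1319 with the local background subtracted. Those higher numbered 188 and 595, against 96 in DLD1 after median scaling, 567 and 1453 by the deposited values, 293 in DLD1 with the offset of 16, and 1372 and 1248 with the local background subtracted. Genes at least 2-fold lower in HT29 than DLD1 numbered 424 with and 750 without glucose, against 751 and 1180 with the offset of 16, 1328 and 1829 with the local background subtracted and 1218 and 1678 with the deposited values. Those whose change was at least 2-fold lower in HT29 than in DLD1 numbered 332, against 611, 1739 and 1312 in the same 3 settings. For the line effect limma called 0 genes, against 772 with the deposited values and 25 without the medium as a block, where 3333 genes had an unadjusted p below 0.05 in the reported fit. Each group has 1 array, so the only block is the line, for the medium, or the medium, for the line. Leaving that block out kept the members' medians at -1.03 for the medium and -1.07 for the line, with adjusted p of 0.549 to 1 for the medium. No group has a second array, so none could be left out, and HT29 without glucose rests on 1 array.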
